A study of Mus musculus with 29 samples.

Results

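T and B lymphocytes enter the injured cortex in the weeks after a stroke. They can be held back with a drug or removed by a gene deletion. Stroked wildtype mice on tacrolimus (WT-Tacr) were compared here directly with stroked Rag2-/- mice, both 21 days post injury (dpi). Members were the samples whose labels give genotype WT_IM or RAG together with the treatment Stroke, and the mice with a delayed start of the drug carry another label and are not members. These are 6 of the 29 bulk RNA-seq samples of the series, 3 WT-Tacr mice (5m_1, 1_5 and 2_1) and 3 Rag2-/- mice (4f_1, 4m_3 and 4m_4). Only the titles of 1_5 and 2_1 carry the word acute, and for 5m_1 and 1_5 the deposited count table carries another animal number than the sample title.

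The WT-Tacr mice were C57BL/6J animals with a subcutaneous osmotic pump that delivered tacrolimus from the day of stroke. The Rag2-/- mice were genetically deficient in Rag2 and received no drug. All were adults of about 3 months and of both sexes, received a photothrombotic stroke of the right sensorimotor cortex, and gave RNA from the dissected stroke region. Non-stroked mice were 4 WT, 3 Rag2-/- and 4 NSG (NOD scid gamma). References after stroke were 4 WT mice without drug, 3 NSG mice and 5 WT mice that began tacrolimus a week after the stroke. The NSG mice serve for gene lists and as a reference. The paper gives them a NOD background, where the other groups are C57BL. No tacrolimus-treated mouse without a stroke enters the comparison, and a drug effect on uninjured cortex therefore cannot be told apart from one after stroke.

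Rag2 and its partner Rag1 form the recombinase that joins antigen receptor gene segments, and without it T and B cell development stops before a receptor is made. Tacrolimus acts later and on more cell types. It binds the immunophilin encoded by Fkbp1a, and the complex inhibits the phosphatase calcineurin, so that NFAT transcription factors stay out of the nucleus and activated T cells do not produce interleukin 2. Calcineurin is also abundant in neurons. A WT-Tacr mouse thus keeps its T and B cells, whereas a Rag2-/- mouse has no mature ones, and both keep microglia, monocytes and neutrophils.

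The libraries held 24124783 to 43403413 counts, with the 2 lowest totals in WT-Tacr 1_5 and 2_1. The titles of mice 1_5 and 2_1 carry the prefix TF, whereas those of 5m_1 and all 3 Rag2-/- mice carry the prefix Imm2. Mice that share a prefix are called a cohort here, and the labels do not say what the prefixes stand for. Transcripts of 4 Y-linked genes summed to 128, 130 and 152 CPM (counts scaled to a common library size, as counts per 1e6) in 5m_1, 4m_3 and 4m_4, and to 0.0416 CPM or less in 1_5, 2_1 and 4f_1. The choroid plexus genes stood apart in Rag2-/- 4f_1, as given beside the results they touch.

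The Rag2 locus was examined first. Rag2 itself had no count in any of the 6 mice, WT-Tacr included, and so does not separate the genotypes in this tissue. The gene B230118H07Rik (RefSeq symbol Iftap) did. It lies on the minus strand of chromosome 2 (GRCm38, chr2:101560781-101649532), and both Rag2 (chr2:101624718-101632529, plus strand) and Rag1 (chr2:101638282-101649501, minus strand) lie within its GENCODE span. One of its 2 RefSeq start sites falls inside the annotated Rag2 gene and the other outside it. The stretch altered in the Rag2-/- mice is not given in the sources used here. Whether it includes either start, and why the gene was low in these mice, was not tested. The 250 bases before the start inside Rag2 (GRCm38.p6, chr2:101629032-101629281, minus strand, credited to RefSeq) are printed to show that promoter. No base is capitalised because no motif was searched.
B230118H07Rik promoter: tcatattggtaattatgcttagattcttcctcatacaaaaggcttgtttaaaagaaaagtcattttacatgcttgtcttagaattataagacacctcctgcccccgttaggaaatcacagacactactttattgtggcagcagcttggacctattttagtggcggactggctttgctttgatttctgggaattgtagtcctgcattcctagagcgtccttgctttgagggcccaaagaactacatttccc

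B230118H07Rik reached 14.9, 14.2 and 15.6 CPM in WT-Tacr 5m_1, 1_5 and 2_1, from 612, 340 and 403 counts. In the Rag2-/- mice 4f_1, 4m_3 and 4m_4 it had 2, 2 and 4 counts. The log2 fold change was 7.52 ± 0.32 (SE; edgeR quasi-likelihood test, adjusted p = 1.3e-14). Non-stroked mice differed in the same way, with 15.2 ± 0.36 CPM (SD, n = 4) in WT and 0.0493 ± 0.0460 CPM (SD, n = 3) in Rag2-/-. The gene therefore followed the genotype labels in every mouse. Rag1 was read at 0.172 to 0.337 CPM in all 6 mice (log2 fold change 0.07 ± 0.43, adjusted p = 0.94).

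**Figure D1:**
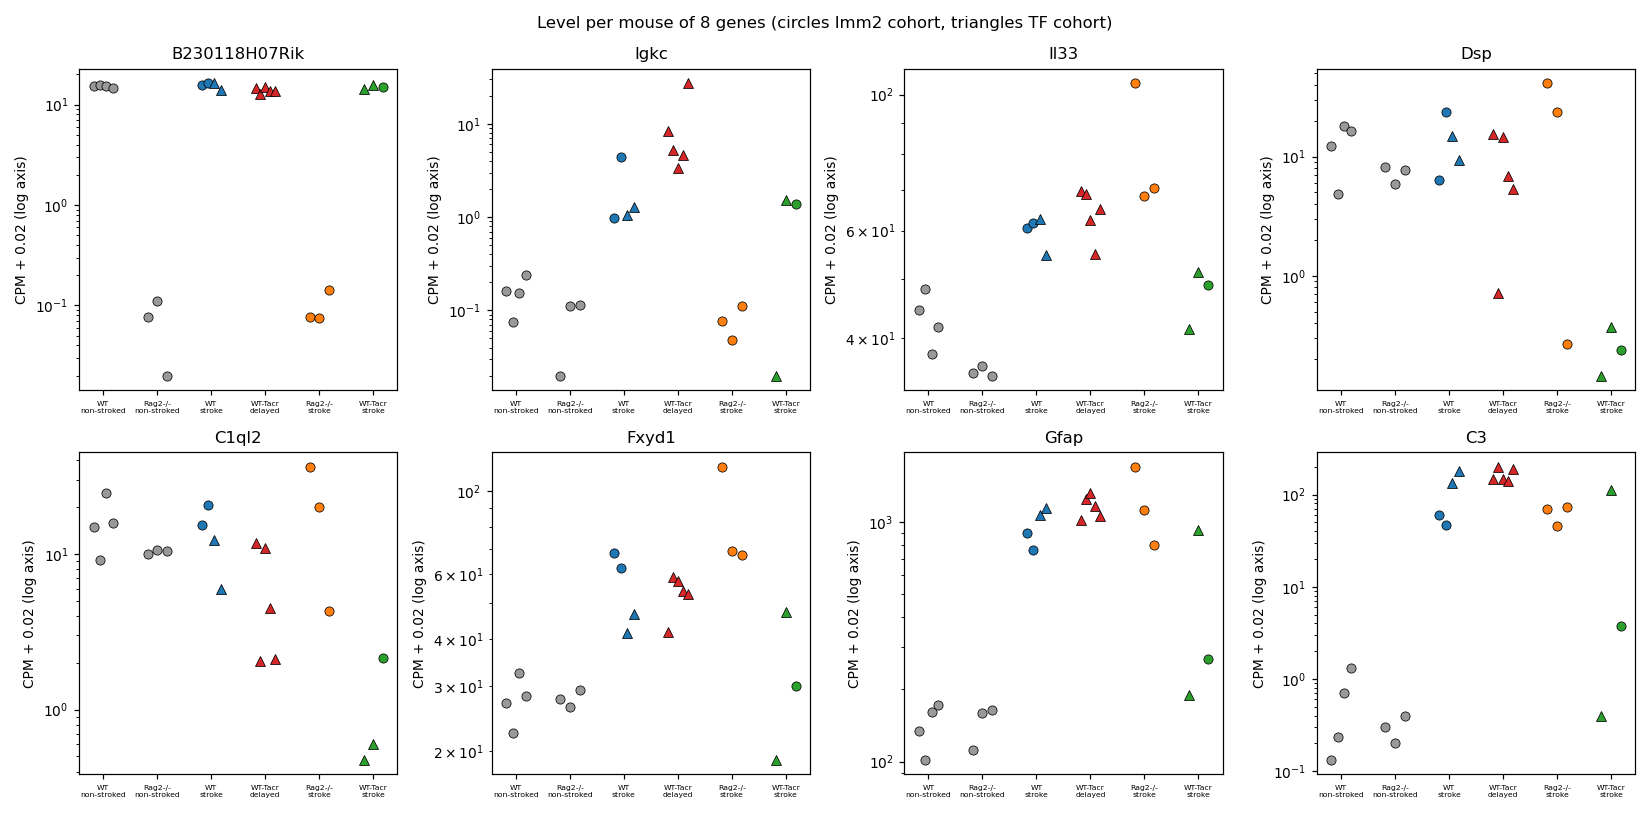
Level of 8 genes in each mouse (vertical log axes, CPM + 0.02), for non-stroked WT and Rag2-/- mice and for stroked WT, delayed WT-Tacr, Rag2-/- and WT-Tacr mice; each point is a mouse, circles are the Imm2 cohort and triangles the TF cohort. B230118H07Rik separated the genotypes in every mouse, Dsp was below 1 CPM in all 3 WT-Tacr mice, Rag2-/- 4m_4 and 1 delayed mouse, and Gfap and C3 spread widely among the WT-Tacr mice.

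No gene of the T cell list or of the B cell and plasma cell list was called between the groups. Immunoglobulin transcripts were read in WT-Tacr mice. Igha, the constant region of IgA heavy chains, had 23, 1 and 30 counts in WT-Tacr 5m_1, 1_5 and 2_1 and no count in any stroked Rag2-/- mouse. Its level was at least 20.5-fold higher in WT-Tacr when the Rag2-/- group is set at a floor of 3 counts over the group (adjusted p = 0.052, and 0.048 without 2_1). Igkc, the kappa light chain constant region, was at 1.36, 0 and 1.51 CPM in WT-Tacr and at 0.0574, 0.0277 and 0.0919 CPM in Rag2-/- (log2 fold change 3.99 ± 1.23, adjusted p = 0.085). Mouse 1_5 thus carried no kappa chain count and 1 IgA count, and its values overlap those of the Rag2-/- mice for Igkc. Stroked WT mice without drug averaged 1.91 CPM of Igkc and 1.41 CPM of Igha.

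Cd3e, a chain of the T cell receptor complex, had 8, 1 and 5 counts in WT-Tacr and 0, 2 and 1 in Rag2-/- mice. The ratio of Rag2-/- to WT-Tacr was 0.188, with a 95% exact counting interval of 0.0347 to 0.675 that covers counting error only (adjusted p = 0.16). Of 24 T cell genes 19 were tested, 1 was higher at an unadjusted p under 0.05, and the list median was 0.53 on the log2 scale. Without WT-Tacr 2_1, the mouse with the highest mean over this list, the median was 0.02 and Cd28, a costimulatory receptor of T cells, was called lower (-2.75, adjusted p = 0.028; chosen after its value was seen). Of 23 B cell and plasma cell genes 14 were tested and 2 were higher at that level (Igha and Igkc), with a median of 0.22, or 0.19 with the 2 genes absent from 1 group set at their bound. Over all 17031 genes tested, 11.7% were higher at an unadjusted p under 0.05. Several listed genes did not separate the genotypes at all. Ighm, the IgM heavy chain constant region, was read at 57.4, 58.7 and 32.7 CPM in WT-Tacr and at 45.0, 40.9 and 43.9 CPM in Rag2-/-, and Trbc2, a T cell receptor beta constant region, at 6.49 to 11.0 and 6.25 to 8.70 CPM. Cd4 ranged from 1.501 to 16.9 CPM in Rag2-/- mice, which have no mature CD4 T cells. Reads on these 3 genes thus did not separate mice with mature T and B cells from mice without them. In bulk tissue, fewer cells of a type and less RNA per cell cannot be told apart.

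Across all genes the direct contrast called 41 of 17031 genes (0.241%) at an adjusted p under 0.05 and more than a 2-fold difference. Of these 3 were higher in WT-Tacr (0.0176%) and 38 were lower (0.223%). The 3 higher genes were B230118H07Rik, Cbln4 and Arhgap15. Cbln4, a secreted synapse organiser of the cerebellin family, was at 20.01, 24.3 and 13.8 CPM in WT-Tacr and 4.04, 9.76 and 11.0 CPM in Rag2-/- (log2 fold change 1.23 ± 0.29, adjusted p = 0.047). Arhgap15, a Rac GTPase activating protein, was at 7.16, 15.1 and 10.6 CPM against 4.50, 4.96 and 6.13 CPM (1.07 ± 0.24, adjusted p = 0.047), but 2 of the 3 WT-Tacr mice were of the TF cohort, and with cohort as a covariate its log2 fold change was 0.65 (adjusted p = 0.18). Within the Imm2 cohort it was 0.45 (adjusted p = 0.59). Cbln4 was at 1.08 with the covariate (adjusted p = 0.12) and at 1.26 within Imm2 (adjusted p = 0.17). Frzb, a secreted Wnt antagonist, was at 18.9, 21.0 and 23.8 CPM against 10.7, 12.4 and 13.4 CPM (0.80 ± 0.17, adjusted p = 0.045) and did not reach the fold threshold. Pgam1, a glycolytic enzyme, and Ociad2 were 0.84 ± 0.16 and 0.54 ± 0.11 higher on the log2 scale and did not reach it either. Without the threshold on fold 180 genes passed (1.06%), 95 higher (0.558%) and 85 lower (0.499%). At an unadjusted p under 0.05 there were 3728 (21.9%).

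**Figure D2:**
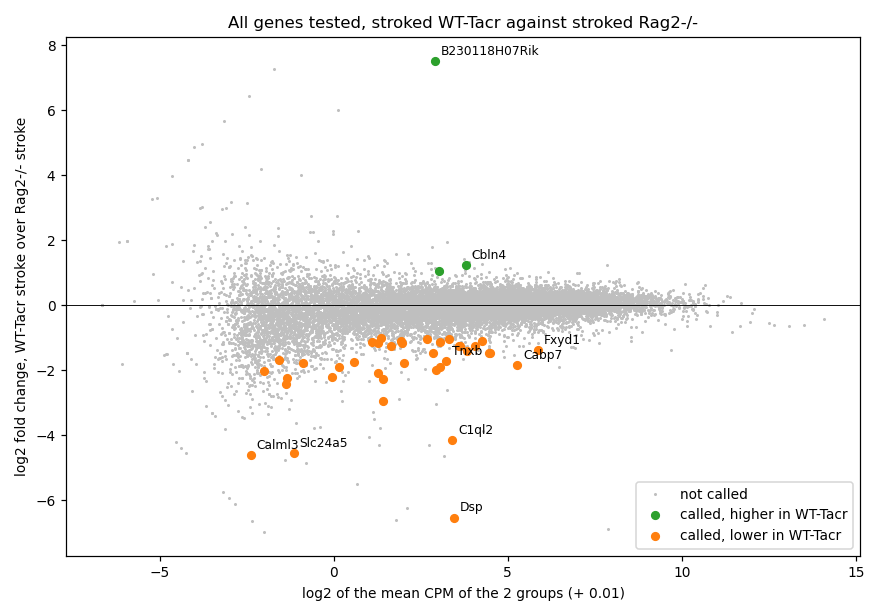
Log2 fold change of WT-Tacr stroke over Rag2-/- stroke (vertical axis) against the log2 of the mean CPM of both groups (horizontal axis) for 17031 genes; each point is a gene, called genes are coloured. The 3 genes called higher in WT-Tacr include B230118H07Rik at 7.52, and the 38 called lower reach Dsp at -6.54.

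The 38 genes called lower in WT-Tacr had adjusted p-values between 0.041 and 0.050, close to the threshold, and log2 fold changes from -6.54 to -1.005. In 31 of them the values of the 3 and 3 mice did not overlap, against 8.67% of all genes that were lower without overlap and 9.29% that were higher. In 35 of the 38 the stroked Rag2-/- mean lay above the non-stroked Rag2-/- mean (49.4% of all genes), and in 29 the WT-Tacr mean lay below the non-stroked WT mean (48.5% of all genes). Genes called for low WT-Tacr and high Rag2-/- values tend to give such counts by their selection, and nothing is read from them. Rag2-/- 4f_1 held the highest value of the 6 mice in 31 of the 38, and WT-Tacr 1_5 the lowest in 31. Without 1_5 the adjusted p of all 38 was 0.46, and without 4f_1 it ranged from 0.30 to 0.36; in either fit B230118H07Rik was the 1 gene still called (0.00579% and 0.0058% of the genes tested). The direction of the 38 stayed the same in both, with log2 fold changes below -1 in 29 of them without 1_5 and in 32 without 4f_1.

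Some of the genes with the largest differences mark the dentate gyrus of the hippocampus, which lies beneath the cortex. C1ql2, a synaptic organiser secreted by granule cells, was at 2.12, 0.458 and 0.579 CPM in WT-Tacr 5m_1, 1_5 and 2_1 and at 36.2, 20.1 and 4.29 CPM in Rag2-/- 4f_1, 4m_3 and 4m_4 (log2 fold change -4.15 ± 0.79, adjusted p = 0.042). Dsp, the desmosomal protein desmoplakin, which granule cells express, had the largest difference of the genes called lower (-6.54 ± 1.39, adjusted p = 0.045), yet its groups overlapped. It was at 0.219, 0.125 and 0.348 CPM in WT-Tacr, at 41.3 and 23.7 CPM in 4f_1 and 4m_3, and at 0.245 CPM in 4m_4. Rag2-/- 4m_4 therefore resembled the WT-Tacr mice for Dsp. Non-stroked WT mice had 4.82 CPM of Dsp or more, non-stroked Rag2-/- mice 5.9 CPM or more and stroked WT mice 6.29 CPM or more. The other tacrolimus group of the series, 5 stroked WT mice with a delayed start, had 5.31 to 15.4 CPM in 4 mice and 0.693 CPM in the mouse 3_4, so that values below 1 CPM were not particular to the 6 mice compared. Htr4, a serotonin receptor, Il16, an interleukin with a neuronal form, Cabp7, a calcium-binding protein, and Ntf3, the neurotrophin NT-3, were lower in WT-Tacr without overlap, and in the Rag2-/- mice each was highest in 4f_1 and lowest in 4m_4. Cabp7 was at 17.9, 16.6 and 15.9 CPM against 101.4, 59.1 and 19.2 CPM (-1.83 ± 0.43, adjusted p = 0.047).

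A list of 7 dentate granule cell genes (Prox1, Dsp, C1ql2, Lct, Tdo2, Dock10 and Trpc6), put together after these values were seen and therefore not tested, summed to 77.0, 71.7 and 90.8 CPM in WT-Tacr and to 318, 191 and 91.8 CPM in Rag2-/-. It ranged from 121 to 200 CPM in non-stroked WT, from 128 to 141 CPM in non-stroked Rag2-/- and from 124 to 206 CPM in stroked WT mice. All 3 WT-Tacr mice and Rag2-/- 4m_4 lay below every mouse of these 3 groups. Mice with a delayed start of the drug ranged from 85.8 to 172 CPM, and the lowest of them, 3_4, lay below WT-Tacr 2_1 and Rag2-/- 4m_4. Non-stroked NSG mice ranged from 108.5 to 205 CPM. Prox1, the transcription factor that defines granule cells, was at 17.4, 15.5 and 15.6 CPM in WT-Tacr and 92.3, 54.8 and 23.1 CPM in Rag2-/-, and missed the threshold (-1.81 ± 0.46, adjusted p = 0.051). The part that the dissected area had in the result was not tested.

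**Figure D3:**
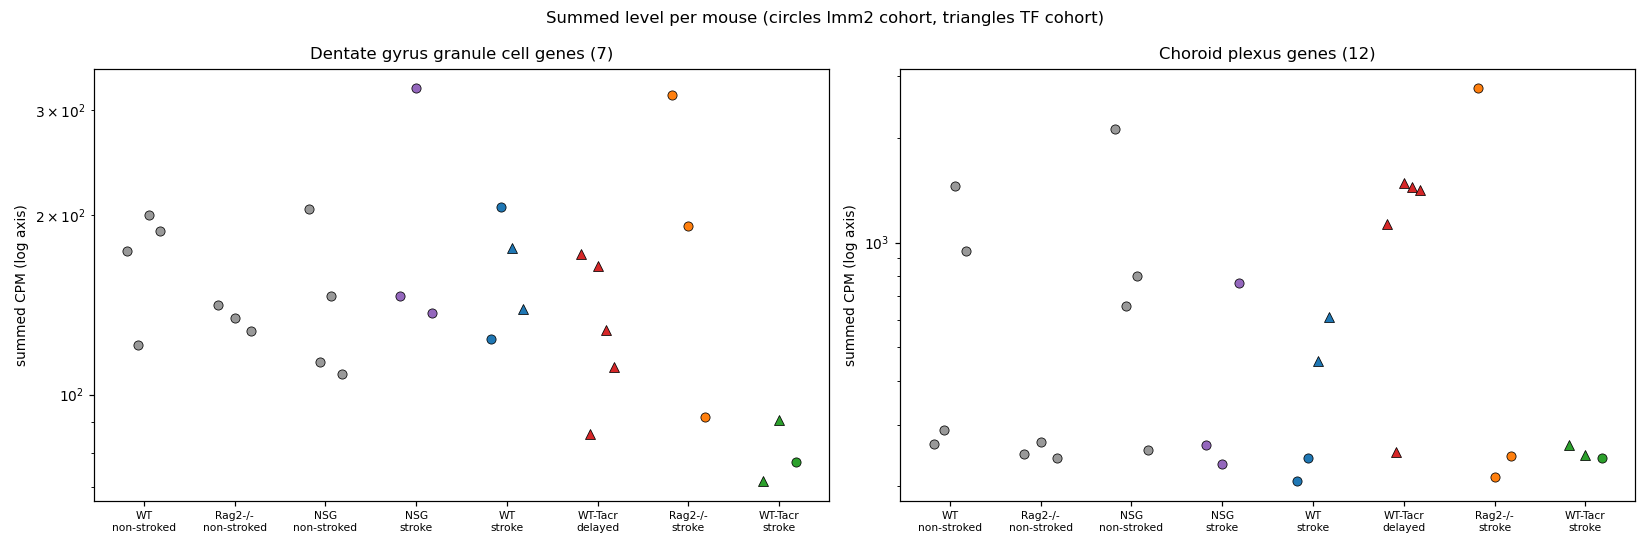
Summed CPM (log axes) of 7 dentate gyrus granule cell genes (left) and 12 choroid plexus genes (right) in each of the 29 mice by group; circles are the Imm2 cohort and triangles the TF cohort. The dentate sum was 91.8 CPM or less in the 3 WT-Tacr mice, Rag2-/- 4m_4 and 1 mouse with a delayed start of the drug, and the choroid plexus sum of 2776 CPM in Rag2-/- 4f_1 stood far above the 212 to 263 CPM of the other 5 stroked mice compared.

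Choroid plexus genes were far higher in 1 of the 6 mice than in the other 5. Ttr, the transthyretin secreted by choroid plexus epithelium, reached 1398 CPM in Rag2-/- 4f_1 and 1.24 to 9.54 CPM in the other 5 mice. The sum of 12 such genes was 2776 CPM in 4f_1 and 212 to 263 CPM in the others. Other groups also held mice with high sums, up to 1454 CPM in non-stroked WT, 2121 CPM in non-stroked NSG and 1481 CPM in delayed WT-Tacr mice. None of the 12 was called, and 11 were lower in WT-Tacr at an unadjusted p under 0.05, against 10.2% of all genes. The list median moved from -3.82 with all mice to -0.26 without 4f_1. The thalamus list of 7 genes had a median of -0.57 with 2 lower, and the striatum list of 8 genes a median of 0.90 with none past that level. The striatum sum ran from 545 to 1791 CPM in WT-Tacr and from 272 to 1060 CPM in Rag2-/-, and the groups overlapped.

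Fxyd1 (phospholemman), a regulator of the sodium pump, was at 29.9, 19.0 and 47.2 CPM in WT-Tacr and 116, 69.0 and 67.3 CPM in Rag2-/- (-1.39 ± 0.25, adjusted p = 0.041). Non-stroked means were 27.5 CPM in WT and 27.8 CPM in Rag2-/-, so Rag2-/- mice stood above their controls and 2 of the 3 WT-Tacr mice near theirs. Stroked WT mice without drug were at 68.06 and 62.21 CPM in the Imm2 cohort and at 41.55 and 46.61 CPM in the TF cohort. S100a11, a calcium-binding protein of reactive and connective tissue cells, was at 3.82, 1.37 and 6.30 CPM against 13.2, 8.84 and 10.1 CPM (-1.48 ± 0.36, adjusted p = 0.047). Tnxb, the matrix glycoprotein tenascin-X, was at 4.48, 3.41 and 5.10 CPM against 15.2, 17.7 and 9.93 CPM (-1.72 ± 0.32, adjusted p = 0.042). The forkhead factors Foxc1 and Foxc2, which act in meningeal development, were 1.13 ± 0.28 and 1.77 ± 0.39 lower on the log2 scale, with no overlap. S100a11, Foxc1 and Foxc2 lie outside the naming rule and were chosen after their values were seen, and no gene of the fibroblast and scar matrix list was among the 38.

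Calml3, a calmodulin-like protein, and Slc24a5, an ion exchanger, rest on few counts. Calml3 had 1, 0 and 0 counts in WT-Tacr and 15, 13 and 9 in Rag2-/- mice, a ratio of 32.5 (95% exact counting interval 5.48 to 1318). Slc24a5 had 2, 0 and 1 against 65, 16 and 8 counts, a ratio of 26.1 (8.63 to 129). Rnase1, a secreted ribonuclease of vessels, was at 0.170, 0.125 and 0.0386 CPM against 1.06, 0.333 and 0.551 CPM (-2.42 ± 0.50, adjusted p = 0.045). The predicted genes Gm43571 and Gm37452 were 2.25 ± 0.50 and 2.03 ± 0.50 lower on the log2 scale, at less than 1 CPM in every mouse.

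Nkx2-2, a transcription factor of oligodendrocyte lineage cells that was also chosen after its values were seen, was called lower, at 2.99, 1.83 and 2.36 CPM against 4.91, 5.598 and 5.15 CPM (-1.11 ± 0.24, adjusted p = 0.045). Its lowest values were in 1_5 and 2_1 of the TF cohort, and stroked WT mice without drug ranged from 2.52 to 4.82 CPM. With cohort as a covariate Nkx2-2 was at -0.67. Sox9, which specifies astrocytes, and Sox10, which specifies oligodendrocyte lineage cells, passed the adjusted p but not the fold (-0.77 ± 0.14, adjusted p = 0.042, and -0.74 ± 0.18, adjusted p = 0.047).

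Cohort and drug group were not independent, since all Rag2-/- mice and 1 of 3 WT-Tacr mice were Imm2. With cohort as a covariate none of the 38 lower genes kept an adjusted p under 0.05, while 33 stayed below -1 on the log2 scale. Within the Imm2 cohort, where the lone mouse 5m_1 was set against 3 Rag2-/- mice with the spread taken from the other groups, 33 of the 38 were again below -1, and 60 genes were called (0.342%), of which 2 are among the 41.

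Il33 had the smallest p in the list of IL-6 and IL-1 family genes. This alarmin of the interleukin 1 family is stored in the nuclei of oligodendrocytes and astrocytes and is released on injury. It was at 48.8, 41.4 and 51.3 CPM in WT-Tacr and at 104, 68.3 and 70.5 CPM in Rag2-/- mice (-0.78 ± 0.13, adjusted p = 0.032), without overlap and short of the 2-fold threshold. Non-stroked means were 43.01 CPM in WT and 35.3 CPM in Rag2-/-, and stroked WT mice averaged 60.0 CPM. In the fit without 1_5 it was at -0.70 ± 0.15 (adjusted p = 0.46) and without 2_1 at -0.84 ± 0.15 (adjusted p = 0.0021). Of the 21 genes tested in the IL-6 and IL-1 family list, 5 were lower at an unadjusted p under 0.05, against 10.2% of all genes, with a median of -0.37. Osmr, the oncostatin M receptor, was among them (-0.99 ± 0.32, adjusted p = 0.089). Il6st, the shared signalling chain gp130, was at -0.24 ± 0.15 (adjusted p = 0.35).

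The WT-Tacr mice differed more from each other than the Rag2-/- mice did. The WT-Tacr mice came from both cohorts (5m_1 from Imm2, 1_5 and 2_1 from TF) and the Rag2-/- mice from Imm2 only. A cohort difference therefore cannot be told apart from a wider spread under the drug. The median SD of log2 CPM over genes was 0.234 in WT-Tacr and 0.152 in Rag2-/-, and the SD was larger in WT-Tacr for 70.3% of genes. The range of the WT-Tacr mice enclosed that of the Rag2-/- mice in 25.0% of genes, and the reverse held in 6.94%. To place each mouse on a scale whose genes were chosen by a contrast of other samples, the 853 genes called higher in stroked than in non-stroked NSG mice, which lack T, B and natural killer cells, were averaged per mouse. This list was chosen after the data had been seen. The mean log2 CPM was 0.75, 0.37 and 2.06 in WT-Tacr 5m_1, 1_5 and 2_1 and 2.05, 1.76 and 1.72 in Rag2-/- 4f_1, 4m_3 and 4m_4. It was 0.10 to 0.31 in non-stroked WT mice, 0.22 to 0.29 in non-stroked Rag2-/- mice and 1.68 to 2.30 in stroked WT mice. Mouse 1_5 thus lay just above the non-stroked WT and Rag2-/- mice and within the 0.19 to 0.45 of the non-stroked NSG mice. Mouse 5m_1 lay below every stroked mouse without drug, and 2_1 level with the highest Rag2-/- mouse. The low mice 1_5 and 5m_1 are those whose count table carries another animal number than the sample title. Which animal each of them came from was not tested. For WT-Tacr the 3 mice averaged 1.06 ± 0.89 (SD, n = 3) and for Rag2-/- 1.84 ± 0.18 (SD, n = 3), and the ranges overlapped.

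**Figure D4:**
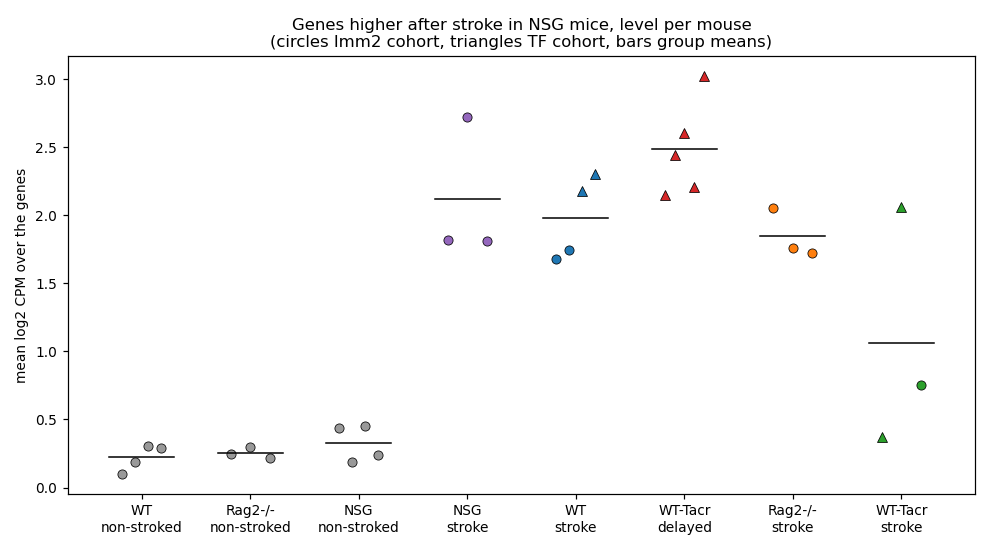
Mean log2 CPM (vertical axis) of 853 genes called higher after stroke in NSG mice, in each of the 29 mice by group; circles are the Imm2 cohort, triangles the TF cohort and bars the group means. Of the WT-Tacr mice, 1_5 (0.37) and 5m_1 (0.75) lay below every other stroked mouse and 2_1 (2.06) among them. The count tables of 1_5 and 5m_1 carry another animal number than their titles.

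Of these 853 genes 228 were lower in WT-Tacr at an unadjusted p under 0.05 and 4 higher, 11 were called lower, and the median log2 fold change was -0.54. Over all genes tested 10.2% were lower and 11.7% higher at that level, 0.223% were called lower, and the median was 0.00. Without 1_5 the median was -0.29, and without 2_1 it was -1.22 with 374 genes called lower. Across all genes the contrast without 2_1 called 595 (3.45%), 18 higher (0.104%) and 577 lower (3.34%). Without 5m_1 the count was 339 (1.96%). The 80 genes called lower after stroke in NSG mice had a median of 0.11.

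By summed level, microglial genes of the injury state followed this order of mice, but by mean log2 CPM 4m_4 (5.61) lay above 4m_3 (5.59). These genes were themselves higher in stroked NSG mice (mean log2 CPM 5.78) than in non-stroked ones (3.18), so a shared order is not separate evidence. The summed level of 25 disease-associated microglia genes was 2858, 2337 and 7495 CPM in WT-Tacr 5m_1, 1_5 and 2_1 and 7284, 6724 and 5577 CPM in Rag2-/- mice. None of the 25 was called, and 12 were lower at an unadjusted p under 0.05, against 10.2% of all genes. The median was -0.60, or -1.60 without 2_1 and -0.35 without 1_5. Apoe, the lipid carrier induced in activated microglia, was at 1361, 991 and 3640.0 CPM against 3966, 3720.0 and 2892 CPM (-0.82 ± 0.27, adjusted p = 0.093). Cd9, a tetraspanin, and Csf1, the ligand of the microglial survival receptor, were at -0.89 ± 0.25 (adjusted p = 0.064) and -0.59 ± 0.15 (adjusted p = 0.054). Homeostatic microglia genes had a median of -0.19, with 3 of 13 lower. Csf1r, the receptor that all microglia need, was at 103, 108 and 169 CPM against 162, 126 and 144 CPM.

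Astrocyte reactivity spread in the same way. Gfap, the intermediate filament of reactive astrocytes, was at 267, 189 and 928 CPM in WT-Tacr and 1694, 1120.0 and 800.3 CPM in Rag2-/- mice, with non-stroked means of 142 and 145 CPM. Its log2 fold change was -1.39 ± 0.37 (adjusted p = 0.055), and -2.40 without 2_1 (adjusted p = 3.0e-05). Without 1_5 it was -1.02 (edgeR adjusted p = 0.46). Of 22 reactive astrocyte genes none was called and 4 were lower at an unadjusted p under 0.05, against 10.2% of all genes. The median of the list was -0.41. Vim, the filament vimentin, was at 36.2, 27.6 and 194 CPM against 195, 150 and 139 CPM. The 12 genes of astrocytes in general included 5 that were lower, with a median of -0.22, and their sum was 8286, 7800.0 and 6905 CPM in WT-Tacr against 9950.0, 8471 and 9055 CPM in Rag2-/- mice, without overlap.

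Complement, antigen presentation and scar genes had medians below 0 without a called gene, and the values depended on WT-Tacr 2_1. Without it 9 of 17 complement genes (median -1.56), 7 of 10 MHC class II genes (-1.81) and 11 of 20 fibroblast and scar matrix genes (-1.36) were called lower, against 3.34% of all genes. Without 1_5 the medians were -0.32 for complement, -0.04 for MHC class II and -0.37 for fibroblast and scar matrix genes. In that fit no gene of these lists was called. With all 6 mice, 10.2% of all genes were lower and 11.7% higher at an unadjusted p under 0.05. At that level 4 of 17 complement genes were lower, with a median of -0.65. C1qa, a chain of the initiating complex of the classical pathway, was at 74.1, 44.5 and 193 CPM against 296, 180 and 186 CPM (-1.09 ± 0.31, adjusted p = 0.064). C3, the central complement protein, was at 3.70, 0.375 and 112 CPM against 70.2, 45.8 and 73.1 CPM (-0.71 ± 0.87, adjusted p = 0.66). MHC class II genes had a median of -0.52 with 2 of 10 lower, and Cd74, the invariant chain, was at 7.25, 2.79 and 51.3 CPM against 73.8, 19.9 and 24.0 CPM. The fibroblast and scar matrix list had a median of -0.73 with 5 of 20 lower, among them Bgn, the proteoglycan biglycan (-1.27 ± 0.43, adjusted p = 0.10). Chemokine ligands had a median of -0.38 with 1 of 19 lower and 1 higher, MHC class I genes one of -0.35 with 2 of 14 lower, interferon-stimulated genes one of -0.24 with 2 of 25 lower, and matrix metalloproteinases with their inhibitors one of -0.33 with 2 of 12 lower.

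**Figure D5:**
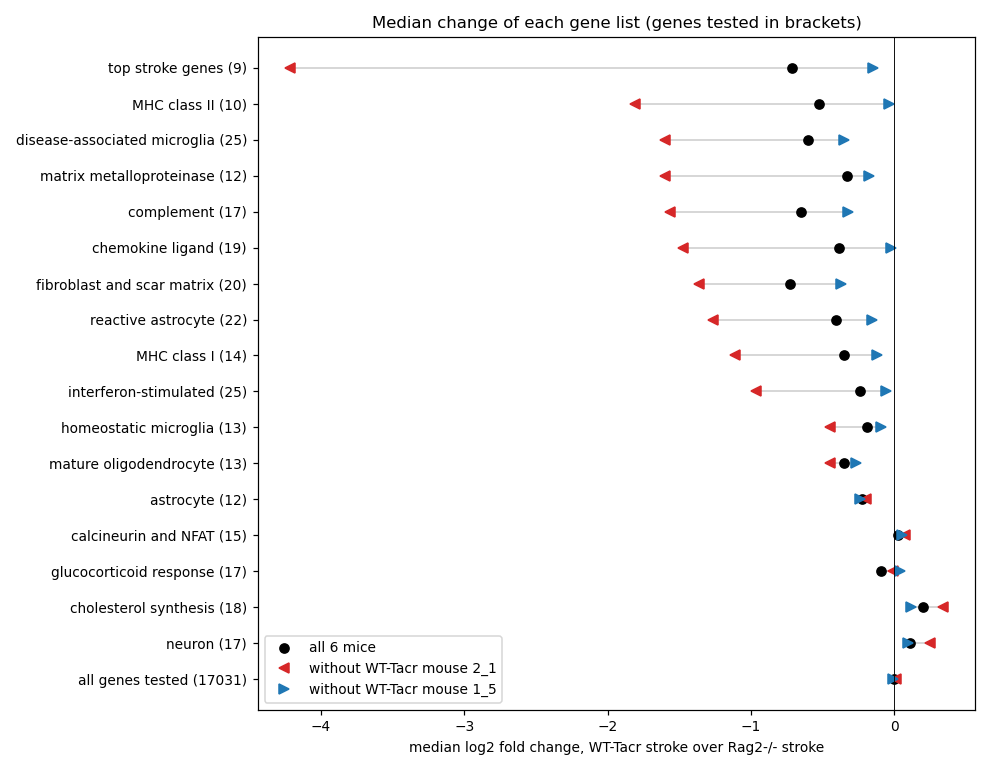
Median log2 fold change of WT-Tacr stroke over Rag2-/- stroke (horizontal axis) for 17 gene lists and for all genes tested, with all 6 mice (black), without WT-Tacr 2_1 (red) and without WT-Tacr 1_5 (blue). Without 2_1 the top stroke genes moved from -0.71 to -4.21 and disease-associated microglia genes from -0.60 to -1.60, whereas glucocorticoid response and calcineurin genes stayed near 0.

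The 9 genes that lead the stroke response of the series were among the most variable in the WT-Tacr group. Their sum was 19.9, 0.832 and 297 CPM in WT-Tacr and 174, 122 and 192 CPM in Rag2-/- mice. Mmp12, a macrophage elastase, was at 3.33, 0 and 13.9 CPM against 16.8, 9.73 and 16.0 CPM. Lcn2, the iron-sequestering lipocalin of reactive astrocytes, was at 8.47, 0.167 and 67.2 CPM against 41.6, 21.3 and 57.8 CPM. Clec7a, the beta-glucan receptor of activated microglia, was at 1.49, 0.0833 and 25.6 CPM against 23.1, 15.6 and 15.3 CPM. None of the 9 passed an unadjusted p of 0.05 (median -0.71). The other genes of the 9 were Cd5l, Mmp3, C3, Apoc4, Tgm1 and Lilr4b, each at its lowest in 1_5. Without 2_1, the mouse with the highest sum of the 9, 8 were called lower, against 3.34% of all genes. The paper names the 9 among the most upregulated genes of all its groups, stroked Rag2-/- mice included. Leaving out the highest WT-Tacr mouse then favours lower calls, and nothing is read from this count.

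For glucocorticoid response genes the summed level was 1486, 1234 and 1335 CPM in WT-Tacr and 1661, 1387 and 1249 CPM in Rag2-/- mice, against 840 to 1090 CPM in non-stroked WT and 872 to 980 CPM in non-stroked Rag2-/- mice. Mouse 1_5 was again the lowest of the 6, but it lay above every non-stroked WT and Rag2-/- mouse for this list, and 2_1 lay below 5m_1. The median over 17 genes was -0.09, with 2 higher and 1 lower at an unadjusted p under 0.05, against 11.7% and 10.2% of all genes. Ddit4, a stress-induced inhibitor of mTOR signalling, was at 0.56 ± 0.19 (adjusted p = 0.099) and Mt1, a metallothionein, at -0.76 ± 0.20 (adjusted p = 0.055).

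Of the calcineurin subunits, the target of tacrolimus, Ppp3cb passed the adjusted p without reaching the fold threshold. Ppp3cb, a catalytic subunit of calcineurin, was at 262, 322 and 278 CPM in WT-Tacr and 220, 229 and 233 CPM in Rag2-/- mice (0.34 ± 0.08, adjusted p = 0.047). Ppp3r1, the regulatory subunit, was at 0.38 ± 0.11 (adjusted p = 0.064), and Ppp3ca, the main neuronal catalytic subunit, at 0.12 ± 0.14 (adjusted p = 0.66). Ppp3cb averaged 274 CPM in non-stroked WT and 262 CPM in non-stroked Rag2-/- mice, so the 3 Rag2-/- values lay below both means. None of the 15 calcineurin and NFAT genes tested was called, and the median was 0.03. At an unadjusted p under 0.05, 3 were higher and 2 lower, against 11.7% and 10.2% of all genes. Fkbp1a, which encodes the protein that tacrolimus binds, was at 496, 365 and 378 CPM against 524, 490 and 477 CPM (-0.27 ± 0.16, adjusted p = 0.34). Among 14 FK506 binding genes 3 were lower (median -0.12), including Fkbp10, a collagen chaperone of the endoplasmic reticulum (-0.66 ± 0.19, adjusted p = 0.064).

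No gene of the neuron and oligodendrocyte lists was called. Of 17 neuron genes 3 were higher and 1 lower at an unadjusted p under 0.05 (median 0.11), against 11.7% and 10.2% of all genes, with Gad1, the enzyme that makes GABA, at 292, 386 and 438 CPM against 206, 216 and 222 CPM (0.79 ± 0.22, adjusted p = 0.062). Of 18 cholesterol synthesis genes 7 were higher and none lower (median 0.20). Of 13 mature oligodendrocyte genes 6 were lower (median -0.35, or -0.11 without 4f_1). Mbp, myelin basic protein, was at 3063, 2166 and 2489 CPM against 5147, 3462 and 3379 CPM (-0.64 ± 0.23, adjusted p = 0.12), with the highest value in 4f_1. Of 10 oligodendrocyte precursor genes 4 were lower (median -0.30).

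The proteins stained in the study were compared at the transcript level. Besides Gfap, Aif1 of microglia was at 2.92, 4.37 and 10.6 CPM against 9.24, 6.21 and 7.81 CPM (-0.39 ± 0.29, adjusted p = 0.44). Rbfox3, which encodes the neuronal nuclear protein NeuN, was at 0.08 ± 0.19, the neurofilament genes Nefl and Nefh at 0.26 ± 0.12 and 0.11 ± 0.21, and the endothelial gene Pecam1 at -0.07 ± 0.20. Anpep, the pericyte aminopeptidase CD13, was at 5.45, 3.41 and 17.4 CPM against 16.1, 19.1 and 14.4 CPM (-0.92 ± 0.46, adjusted p = 0.24). None of the 7 passed an adjusted p of 0.05. Without 2_1 Gfap, Aif1 (-1.10, adjusted p = 0.0080) and Anpep (-1.88, adjusted p = 0.014) were called lower, against 3.34% of all genes. Without 1_5 none of the 7 was called, and Gfap was at -1.02 (edgeR adjusted p = 0.46).

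The responses to stroke were then compared, each arm against non-stroked mice of its own genotype. A difference between the genotypes before stroke is thereby removed, and the arms share no sample. The non-stroked WT mice received no drug, so a drug effect present without stroke stays in the WT-Tacr arm. They were all of the Imm2 cohort, as was the whole Rag2-/- arm, whereas 1_5 and 2_1 were TF, so a cohort difference stays in that arm too. No gene was called by the edgeR quasi-likelihood test (0 of 17031, 0%), with 2243 at an unadjusted p under 0.05 (13.2%). DESeq2 called 30 (0.176%) and limma voom with sample quality weights 45 (0.264%). B230118H07Rik had a response difference of -0.62 (adjusted p = 0.75). Il33 had the smallest p (-1.07, adjusted p = 0.072). C1ql2, Dsp, Tnxb and Atoh8, a basic helix-loop-helix factor, followed on the lower side, each at an adjusted p of 0.21 or less. On the higher side were Ackr1, an atypical chemokine receptor of venules (0.76), Dtl, a ubiquitin ligase adaptor (1.07), Slc7a4 (0.66), Prelid3a (0.56) and Stk11ip (0.55), each at an adjusted p of 0.21. Without WT-Tacr 2_1 this contrast called 103 genes (0.597%), and without Rag2-/- 4m_4 it called 5 (0.029%). Disease-associated microglia and reactive astrocyte genes had median response differences of -0.59 and -0.56.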

How the data were processed

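Bulk polyA RNA of the dissected stroke region or of non-stroked cortex was sequenced by the authors from stranded libraries. They deposited 1 table of read counts per gene for each sample (whole numbers, not normalized). The aligner, counter and genome build are not given in the sources used here, and whether the counting used strand is not either. Ensembl gene IDs were matched to GENCODE M21 (GRCm38), and 25712 of 25746 matched. Groups came from the sample labels. Replicates are separate mice.

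Counts of all 29 samples in 8 groups were fitted with edgeR 4.0.16 (R 4.3.3; TMM, filterByExpr, quasi-likelihood), which left 17031 genes, and p-values were adjusted by Benjamini-Hochberg over all of them. SE is the log2 fold change over the root of F. Called genes had an adjusted p under 0.05 and a log2 fold change over 1. CPM uses TMM-scaled library sizes. log2 CPM has a prior count of 2. Floors are 3 counts over a group. Totals of 24124783 to 43403413 counts in the 6 mice compared make counting error small for all but rare transcripts. Scripts were tested on simulated data.

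Named genes were the 10 called genes per direction with the largest change and no overlap between mice, filled to 5 by p where fewer passed; 5 per direction for the fit without WT-Tacr 1_5 and for the response difference; the targeted locus, stained proteins and leading stroke genes; and up to 4 members per list. The comparison, members and lists were chosen with earlier results of these data known, and genes named outside the rule are said to be. Some genes that the rule names are not reported here. Alternatives were another scaling, filters, covariates, cohorts, DESeq2 1.42.0, limma 3.58.1 voom and leaving out each mouse.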

Additional observations from a re-analysis of the deposited data

How the results depend on the processing

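The direct contrast called 41 genes and the response difference 0. For the direct contrast, DESeq2 called 151 and voom with quality weights 117. No filter on low counts gave 4, cohort as a covariate 3, a fit on only the groups compared 1, and no minimum fold change 180. Leaving out 1 mouse gave 1 to 595: 1 without 1_5 or without 4f_1, 16 without 4m_3, 76 without 4m_4, 339 without 5m_1 and 595 without 2_1. Leaving out 1_5 and 4f_1 together, added after the data were seen, gave 1. Other scaling, a mean of at least 1 CPM and Ddx3y as a covariate stayed within 1.5 times in number, and called 39, 33 and 39 of the 41 genes again. The filter at a mean of 1 CPM kept only 33 of the 41, and all of those were called. Voom called 22 of the 41 again and the fit with cohort as a covariate 1. The Imm2 cohort alone leaves 1 WT-Tacr mouse, so its number of calls is not set beside these. For the response difference, DESeq2 gave 30, voom 45 and the Ddx3y covariate 2, and leaving out 1 mouse gave 0 to 103. Apart from the fewer samples or genes that an alternative has, the cause was not tested. Among 232 values of 15 named genes none changed direction, 102 lost their call and 1 gained it. Low-count genes such as Igha, Calml3 and Slc24a5 are limited by depth. With 3 mice a group, an exact permutation test of a single value cannot go below 0.10. No paired analysis was possible because the titles of the stroked groups share no replicate numbers.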

Other observations

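The natural killer and cytotoxic list held 2 T-box factors that were high in 1 mouse. Eomes was at 6.30 CPM in WT-Tacr 2_1 and at 0.195 and 0.0833 CPM in 5m_1 and 1_5, and Tbx21 was at 2.74 CPM in 2_1 and at 0.268 and 0.250 CPM in the other two. Both factors are also known from projection neurons of the olfactory bulb. Stroked WT mice averaged 5.96 CPM of Eomes and 2.39 CPM of Tbx21. Klrb1c, which encodes the natural killer receptor NK1.1, was at 0 to 0.116 CPM in WT-Tacr and 0.0831 to 0.373 CPM in Rag2-/- mice (log2 fold change -2.12, edgeR adjusted p = 0.15). Of the 8 genes tested in the list 1 was higher and 1 lower at an unadjusted p under 0.05, against 11.7% and 10.2% of all genes.

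The TF cohort differed in some housekeeping transcripts. Rpl22l1, a paralog of a ribosomal protein gene, was at 30.7 and 33.7 CPM in 1_5 and 2_1 and at 7.26 to 9.07 CPM in the other 4 mice. Mitochondrially encoded transcripts summed to 35300 and 37180 CPM in 1_5 and 2_1 and to 52950 to 73710 CPM in the other 4. Of these 13 genes 8 were lower and 2 higher in WT-Tacr at an unadjusted p under 0.05, against 10.2% and 11.7% of all genes. The 81 ribosomal protein genes tested had a median of 0.05 with 11 higher and 7 lower.

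Medians of the remaining lists were 0.54 for neutrophil genes (1 of 7 lower), -0.04 for erythrocyte genes, -0.30 for border macrophage genes (1 of 10 lower), 0.22 for cortical layer genes (1 higher and 1 lower of 13), 0.14 for blood-brain barrier endothelium (1 higher and 1 lower of 15), -0.23 for pericyte and smooth muscle genes (1 of 12 lower), -0.14 for common gamma chain cytokine genes (none of 14), 0.09 for angiogenesis genes (1 higher and 4 lower of 25), 0.39 for immediate early genes (2 higher and 1 lower of 18) and -0.10 for cell cycle genes (1 higher and 1 lower of 16). These counts are at an unadjusted p under 0.05, a level at which 11.7% of all genes were higher and 10.2% lower. None of these lists held a called gene. Leaving out 1 mouse turned the median of some: without 2_1 that of neutrophil genes was -0.36, with Csf3r, the receptor of a granulocyte growth factor, called lower (-1.42, edgeR adjusted p = 0.00058), and without 1_5 it was 0.97. Erythrocyte genes were at 0.31 without 1_5, common gamma chain cytokine genes at 0.02, angiogenesis genes at -0.02 and cell cycle genes at 0.00.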
